A study of Homo sapiens with 4 samples.

Results

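E-cadherin-low and E-cadherin-high cells were compared among CD133-high cells of PC14, a cultured line from a human non-small-cell lung carcinoma. The comparison used 2 of the 4 arrays of the study, chosen by their labels as the E-CD133+ and E+CD133+ subpopulations, with 1 array for each. E-CD133+ cells carried little E-cadherin and were described by the submitters as a mesenchymal type, and E+CD133+ cells carried much E-cadherin and were described as an epithelial type. Both were sorted by fluorescence, first on E-cadherin and then on green fluorescent protein driven by the P1 promoter of the CD133 gene in a lentiviral reporter, which all 4 subpopulations share. The other 2 arrays, E-CD133- and E+CD133- cells, were set beside this pair because they hold the same E-cadherin comparison among CD133-low cells and share no array with it. All RNA came from 1 cultured cell line under 1 growth condition with no treatment named, and the labels do not say whether the subpopulations came from separate cultures.

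E-cadherin, encoded by CDH1, joins neighbouring epithelial cells at adherens junctions, beside the tight junctions that seal the cell layer and the desmosomes that tie it to keratin filaments. In the epithelial to mesenchymal transition, cells lose these contacts under transcriptional repressors such as ZEB1, which binds E-box sequences, and can gain matrix, protease and motility genes. CD133, encoded by PROM1, is a surface protein used to mark stem-like cancer cells in lung tumours and other cancers.

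The sort on E-cadherin was visible in the RNA. CDH1 read 347.0 in E-CD133+ cells and 5548 in E+CD133+ cells, a 16-fold lower signal (log2 -4.00), by the brighter of its probe sets. Its other probe set also had the lower signal in E-CD133+ cells, where it lay below the floor, and lay just above the floor in E+CD133+ cells. The log2 ratio of 0.13 for this probe set arose because the floor was higher in E-CD133+ cells (60.3 against 53.7). That ratio therefore gives no direction for CDH1. PROM1, the gene behind the second sort, read 10.3 in E-CD133+ and 12.1 in E+CD133+ cells, and 4.8 and 29.7 in E-CD133- and E+CD133- cells. These signals all lay below the floor, which was the median signal of each array (53.7 to 60.3), so the arrays gave no measure of the CD133 sort. Of the other epithelial markers, EPCAM read 6554 in E-CD133+ and 12326 in E+CD133+ cells, while KRT19, CLDN4, CLDN7 and ESRP1 lay below the floor in all 4 subpopulations. Keratins did not follow EPCAM in this pair. Of 5 measured keratin genes, 0 were 2-fold higher or lower and 3 had a log2 ratio above 0. Their median was 0.25, against -0.92 in the CD133-low pair. Of the mesenchymal markers, VIM read 20200 in E-CD133+ and 12448 in E+CD133+ cells, and SPARC lay below the floor in all 4. CDH2, the mesenchymal N-cadherin, lay below it in all 4 by its brighter probe set. Its other probe set read 140.2 in E-CD133+ cells and 39.2, under the floor, in E+CD133+ cells, a log2 ratio of 1.38 that is a bound.

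In all, 13228 genes were measured, meaning above the floor on at least 1 array of the pair. Of these, 536 (4.05%) read 2-fold or more above E+CD133+ cells in E-CD133+ cells, and 356 (2.69%) read 2-fold or more below. With 1 array a subpopulation there is no spread between replicates, so no difference below has a test and the 2-fold limit stands in for one. In E-CD133- against E+CD133- cells, 371 of 13159 measured genes (2.82%) passed 2-fold upward and 404 (3.07%) downward. The excess of higher over lower genes in E-CD133+ cells (60.1% of those counted) depended on scaling, since 39% were higher after the array medians were made equal and 51.9% after quantile normalization. Equal medians shifted the median ratio of all genes by -0.17 on the log2 scale. The median log2 ratio of all measured genes was 0.01, with 5% of genes below -0.76 and 5% above 0.91. The ratio of 3' to 5' actin signal, a sign of RNA integrity, was 1.78 in E-CD133+ and 1.59 in E+CD133+ cells, and that of GAPDH 1.02 and 0.96. The 5' end of 18S ribosomal RNA gave a signal of 8619 in E-CD133+ and 13204 in E+CD133+ cells. In CD133-low cells it gave 7226 in E-CD133- and 14297 in E+CD133- cells, so it was lower with low E-cadherin in both pairs. The part of these values in the results was not tested. Where 1 of the 2 arrays lay below the floor, the fold is a bound and is written "at least".

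**Figure D1:**
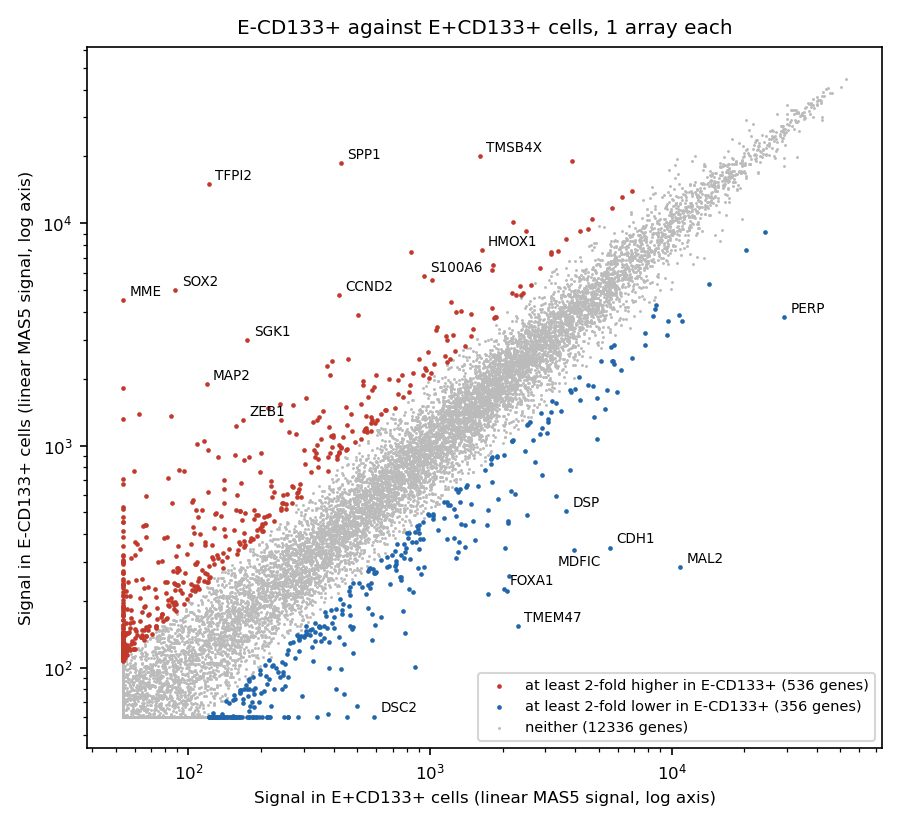
Signals of 13228 measured genes in E-CD133+ cells (vertical, log axis) against E+CD133+ cells (horizontal, log axis), 1 array each, with low signals set to the floor of the array. Red points are the 536 genes at least 2-fold higher in E-CD133+ cells, blue points the 356 at least 2-fold lower, and TFPI2, SPP1 and MME stand far above the diagonal while MAL2, CDH1 and TMEM47 stand far below it.

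The share of genes counted depended on signal. None of the 1851 genes whose brighter array read under 100 was counted. Among 3903 genes whose brighter array read 100 to 500, 8.53% were counted as higher and 4.61% as lower. Among 3620 genes whose brighter array reached 2000, 1.91% were higher and 1.96% lower. At a brighter signal of at least 500, 203 genes were higher and 176 lower. Of the 206 higher genes with another probe set above the floor, 178 (86.4%) had all of them in the same direction, and of 162 lower genes 126 (77.8%) did. Among all 6484 measured genes with another probe set this share was 53.1%.

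Epithelial cell contacts were lower in E-CD133+ cells mainly at the desmosome. Of 8 measured desmosome genes, 5 were at least 2-fold lower, 0 were higher, and the median log2 ratio was -1.57. DSP, the plaque protein desmoplakin, read 505.2 in E-CD133+ and 3656.5 in E+CD133+ cells, 7.24-fold lower. PERP, a membrane protein of desmosomes, read 3770 in E-CD133+ and 29287 in E+CD133+ cells (7.77-fold lower). Its other 2 probe sets had log2 ratios of -3.34 and -2.18, the latter a bound. The desmosomal cadherin DSC2 read 31.7 in E-CD133+ and 585.7 in E+CD133+ cells, at least 9.71-fold lower. Its partner cadherin DSG2 read 1459 in E-CD133+ and 5303 in E+CD133+ cells, 3.63-fold lower. PKP3, a plakophilin of the plaque, read 88.9 in E-CD133+ and 215.7 in E+CD133+ cells, 2.43-fold lower. The desmosome was also lower in E-CD133- than in E+CD133- cells, with 6 of 10 measured members at least 2-fold lower and a median log2 ratio of -1.21.

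The promoters of DSP, DSC2 and DSG2 are shown because their genes are the desmosomal core among the lower genes and each holds the E-box that ZEB1 and SNAI proteins are known to bind. Each line gives the 250 bases before the transcription start from RefSeq (GRCh38.p14), written 5′ to 3′ on the strand of the gene, with the E-box CAGGTG or CACCTG in capitals. These spellings are the same site read on opposite strands. They lie at chr6:7541421-7541670 on the plus strand for DSP, chr18:31102422-31102671 on the minus strand for DSC2 and chr18:31497927-31498176 on the plus strand for DSG2.
DSP: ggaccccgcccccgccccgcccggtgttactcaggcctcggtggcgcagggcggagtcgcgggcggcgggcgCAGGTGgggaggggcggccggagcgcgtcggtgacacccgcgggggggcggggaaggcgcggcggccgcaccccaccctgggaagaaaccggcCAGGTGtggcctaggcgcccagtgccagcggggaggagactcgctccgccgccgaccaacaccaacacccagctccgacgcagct
DSC2: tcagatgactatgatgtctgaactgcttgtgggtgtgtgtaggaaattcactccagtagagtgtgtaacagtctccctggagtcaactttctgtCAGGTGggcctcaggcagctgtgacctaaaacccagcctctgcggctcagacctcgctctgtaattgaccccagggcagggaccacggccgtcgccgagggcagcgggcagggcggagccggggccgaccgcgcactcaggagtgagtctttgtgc
DSG2: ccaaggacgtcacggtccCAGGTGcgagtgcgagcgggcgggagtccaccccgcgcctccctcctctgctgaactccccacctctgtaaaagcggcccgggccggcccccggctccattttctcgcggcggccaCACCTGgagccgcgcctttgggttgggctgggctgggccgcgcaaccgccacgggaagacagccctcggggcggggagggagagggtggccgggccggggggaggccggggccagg
In DSP the boxes begin 178 and 85 bases before the start, in DSC2 the box begins 156 bases before it, and in DSG2 they begin 232 and 116 bases before it. Promoters were at hand for 5 of the 8 measured desmosome genes, and those of JUP and PERP held no such box. Of 282 promoters of the lower genes, 68 (24.1%) held at least 1 box, against 64 of 413 promoters of the higher genes (15.5%) and 15.8% of the promoters of all measured genes. Among lower genes that were lower in both pairs the share was 36.1% of 61, and among those not shared with the CD133-low pair it was 21.3% of 169. Over all promoters in the table it was 17.5%. A match is a run of letters in this window and not a measured binding site.

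Other contact genes were lower one by one, not as whole groups. MAL2, a membrane protein of apical traffic, read 282.7 in E-CD133+ and 10870 in E+CD133+ cells and was 38.5-fold lower (log2 -5.26), the largest fold among the lower genes whose brighter array reached 500. Of 22 measured apical polarity and traffic genes, 4 were lower and 0 higher, with a median log2 ratio of -0.10. The other 3 were the motor protein MYO5B (265.2 in E-CD133+ and 920.7 in E+CD133+ cells), the lipid enzyme CDS1 (576.5 and 1905.5) and SH3YL1 (3867 and 10742), at 3.47-fold, 3.31-fold and 2.78-fold lower. All 4 were also at least 2-fold lower in E-CD133- than in E+CD133- cells, MAL2 by 13.2-fold. Of 18 measured tight junction genes, 2 were lower, and the scaffold gene TJP1 had a log2 ratio of 0.23. Of 11 measured adherens junction genes CDH1 alone was lower, and NECTIN3, a nectin, was at least 3.52-fold higher. TMEM125, a membrane protein, was 7.41-fold lower, with 67.5 in E-CD133+ and 500.5 in E+CD133+ cells, and at least 2.33-fold lower in the CD133-low pair.

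ZEB1, the repressor of CDH1 and other epithelial genes, read 1301 in E-CD133+ and 168.0 in E+CD133+ cells, 7.74-fold higher. Its other 3 probe sets had log2 ratios of 0.65 to 1.90, of which 0.65 and 1.87 are bounds. In CD133-low cells ZEB1 was higher too, with 1056 in E-CD133- and 64.8 in E+CD133- cells (16.3-fold). HMGA2, a chromatin protein, read 10510 in E-CD133+ and 4697 in E+CD133+ cells and was 2.24-fold higher. Those were the 2 counted among 8 measured transcription factors of the transition, whose median was 0.10 and turned to -0.07 after equal medians. TWIST1, named after its values were seen, read 19618 in E-CD133+ and 17844 in E+CD133+ cells (log2 0.14). OVOL2, a factor that keeps cells epithelial, read 286.7 in E-CD133+ and 716.4 in E+CD133+ cells, 2.5-fold lower. It was the only counted member of 5 measured epithelial transcription and splicing regulators. Of these 5, 3 had a log2 ratio above 0 and the median was 0.46, with GRHL1 at 0.76. VIM, the filament protein vimentin, had a log2 ratio of 0.70 in E-CD133+ over E+CD133+ cells and of 2.89 in E-CD133- over E+CD133- cells, where E+CD133- cells read 1740. Of 14 measured mesenchymal filament and surface genes, 0 were 2-fold higher or lower in E-CD133+ cells.

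Of the 536 higher genes, 67 were also at least 2-fold higher in E-CD133- than in E+CD133- cells, 12.5% of the list here and 18.1% of the list there. Of the 356 lower genes, 76 were lower in both, 21.3% and 18.8%. A larger number had no such counterpart. 397 higher genes (3.0% of measured genes) and 219 lower genes (1.66%) had a log2 ratio under 0.5 in the same direction in the CD133-low pair and are called not shared. The median log2 ratio of all genes measured in the CD133-low pair was -0.03, so most genes of any kind lie under that limit in a given direction. The difference between the pairs has no residual degree of freedom and was not tested. At a brighter signal of at least 500, 145 higher and 99 lower genes were not shared. In 86 of the not shared higher genes and 14 of the lower ones both CD133-low arrays lay at the floor, so no ratio could be seen there.

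The array behind a not shared difference could be read from the levels. For 202 of the 397 not shared higher genes, E-CD133+ cells lay at least 2-fold above each of the other 3 subpopulations. For 49, E+CD133+ cells lay at least 2-fold below each of the other 3, for 151 neither held and for 5 both did. Of the 219 not shared lower genes, E-CD133+ cells lay at least 2-fold below the other 3 for 72, E+CD133+ cells at least 2-fold above them for 40, neither for 108 and both for 1. In 86 of the 397 and 14 of the 219 both CD133-low arrays lay at the floor. There, the brighter array of the pair stands above the other 3 almost wholly because the gene was chosen at 2-fold. How many of the 202 and the 40 are such genes was not counted. Values that stand apart on 1 array cannot be told apart from a fault of that array.

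**Figure D2:**
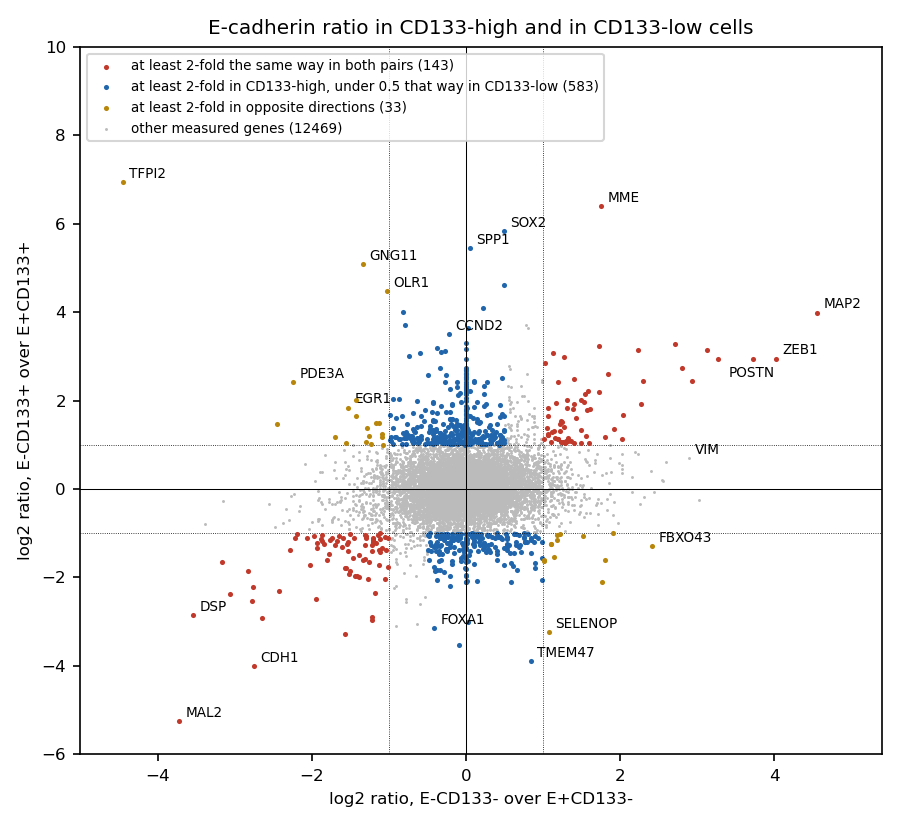
Log2 ratio of E-CD133+ over E+CD133+ cells (vertical) against that of E-CD133- over E+CD133- cells (horizontal) for the 13228 genes, with dotted lines at 2-fold. Red points are 143 genes at least 2-fold the same way in both pairs, gold points 33 in opposite directions and blue points the other 583 not shared, many of them on the vertical line at 0 because both CD133-low arrays lay at the floor.

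By size, TFPI2, SOX2, SPP1 and GNG11 led the higher genes that were not shared, among those whose brighter array reached 500. TFPI2, a secreted inhibitor of serine proteases that guards the matrix, read 14974 in E-CD133+ and 121.2 in E+CD133+ cells, 124-fold higher (log2 6.95), and its other probe set gave 7.56. In CD133-low cells it ran the other way, with 35.6 in E-CD133- and 1251 in E+CD133- cells. SPP1, the secreted matrix protein osteopontin, read 18750 in E-CD133+ and 428.2 in E+CD133+ cells, 43.8-fold higher. It read 181.5 in E-CD133- and 175.7 in E+CD133- cells, so E-CD133+ cells stood alone. SGK1, a kinase induced by serum and glucocorticoids, read 2987.5 in E-CD133+ and 175.4 in E+CD133+ cells, 17-fold higher, beside 264.1 in E-CD133- and 227.5 in E+CD133- cells.

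SOX2 and MME had their low value in E+CD133+ cells. SOX2, a transcription factor of stem cells and of the airway lineage, read 5006 in E-CD133+ and 88.3 in E+CD133+ cells, 56.7-fold higher, and its other probe set gave a log2 ratio of at least 2.91. It read 4262 in E-CD133- and 3021 in E+CD133- cells, a log2 ratio of 0.50 that fell just inside the limit for not shared. MME, the cell surface peptidase neprilysin, read 4531.5 in E-CD133+ and 12.8 in E+CD133+ cells, at least 84.4-fold higher, and 673.4 in E-CD133- and 198.9 in E+CD133- cells. MME was thus 2-fold higher in both pairs, like the neuronal microtubule gene MAP2, which read 1886.5 in E-CD133+ and 118.8 in E+CD133+ cells (15.9-fold higher).

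GNG11, a G protein gamma subunit, read 1810 in E-CD133+ and 47.1 in E+CD133+ cells, at least 33.7-fold higher. OLR1, a scavenger receptor for oxidised lipoprotein, read 1381 in E-CD133+ and 62.2 in E+CD133+ cells, 22.2-fold higher. Both were at least 2-fold lower in E-CD133- than in E+CD133- cells. BRINP3 and its divergent transcript BRINP3-DT were 16-fold and 13-fold higher, with 1355 and 771.5 in E-CD133+ cells and 84.6 and 59.3 in E+CD133+ cells. CCND2, the cell cycle regulator cyclin D2, read 4749.5 in E-CD133+ and 418.4 in E+CD133+ cells, 11.4-fold higher. Its 3 other probe sets had log2 ratios of 0.97 to 2.76, of which 0.97 and 1.49 are bounds. TMSB4X, an actin-binding peptide, read 20044 in E-CD133+ and 1605 in E+CD133+ cells (12.5-fold higher), but its probe set is marked as shared between transcripts and near-identical copies make the value uncertain. TMEM52B, SYNE1, SKIDA1 and TMEM88 were at least 24.6-fold, 13.1-fold, 12.5-fold and 9.84-fold higher, all of them at the floor in E+CD133+ cells.

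Among the lower genes, TMEM47, a junction-associated membrane protein, read 154.4 in E-CD133+ and 2304 in E+CD133+ cells, 14.9-fold lower. In the other pair TMEM47 read 2406 in E-CD133- and 1347 in E+CD133- cells, a log2 ratio of 0.84. MDFIC, a regulator of transcription factor activity, read 339.4 in E-CD133+ and 3947 in E+CD133+ cells, 11.6-fold lower. Of its 3 other probe sets, 2 had log2 ratios of -2.67, a bound, and -2.27. SELENOP, the selenium carrier, read 222.0 in E-CD133+ and 2084 in E+CD133+ cells, 9.39-fold lower, against 1890 in E-CD133- and 895.9 in E+CD133- cells. FAM169A was 8.10-fold lower, with 214.6 in E-CD133+ and 1738.5 in E+CD133+ cells. Each of these 4 genes had its lowest value of the 4 arrays in E-CD133+ cells.

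**Figure D3:**
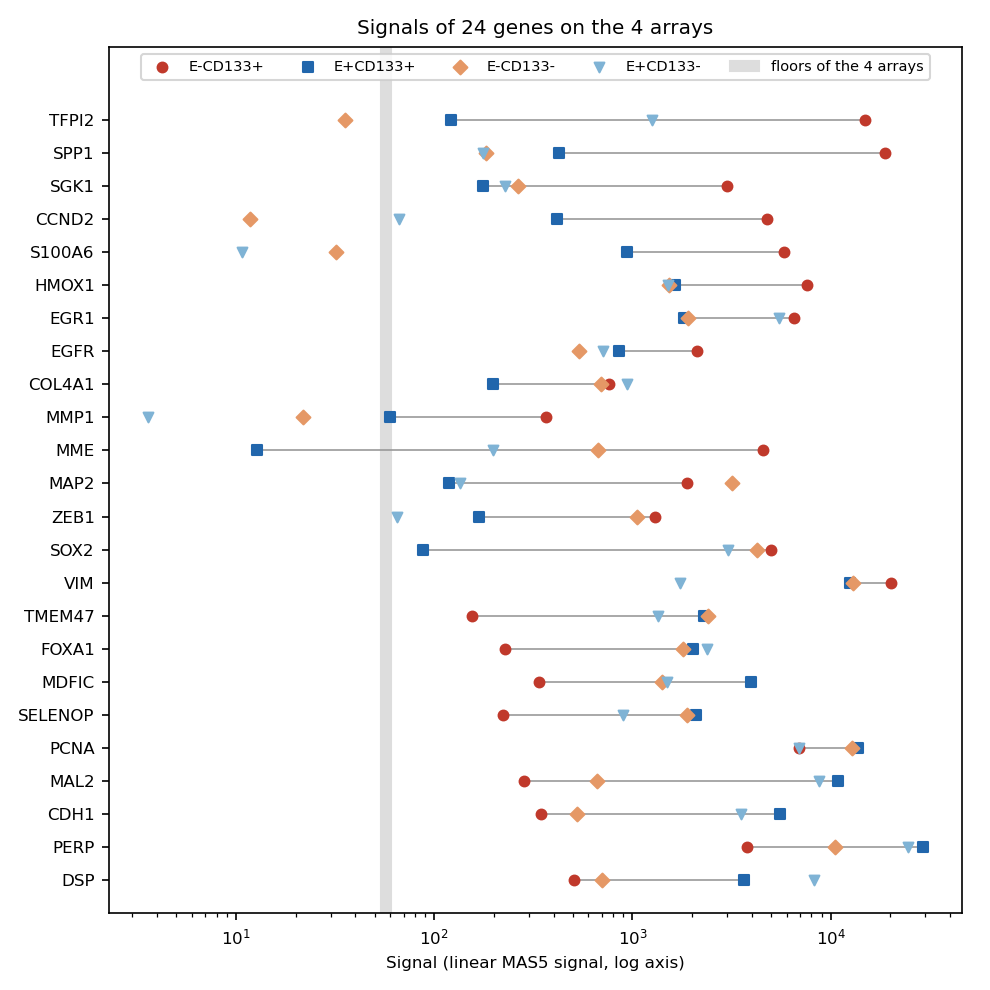
Signals of 24 genes named in the text on all 4 arrays (log axis), 1 point per subpopulation, with a grey line joining E-CD133+ (red circles) and E+CD133+ (dark blue squares). In SPP1, SGK1, CCND2, S100A6 and HMOX1 the red circle stands above the other 3 points, and in TMEM47, FOXA1, MDFIC and SELENOP it stands below them.

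FOXA1, FOXA2 and FOXP2, forkhead transcription factors, were lower in E-CD133+ cells. Of 20 measured genes of the lung lineage, GATA and FOXA list, which also holds secretory genes, 7 were at least 2-fold lower, 1 was higher and 12 were neither. The median log2 ratio was -0.65, against -0.02 in the CD133-low pair. Of the 7, 3 were also at least 2-fold lower in the CD133-low pair and 1, FOXA1, was not shared. The CD133-high median was -0.32 with no floor, -0.33 without shared probe sets and -0.35 with the mean over probe sets. FOXA1, a pioneer factor of endoderm, read 226.4 in E-CD133+ and 2016 in E+CD133+ cells, 8.90-fold lower, and its other probe set gave -2.59. E-CD133- and E+CD133- cells read 1798 and 2381, so the low value stood alone in E-CD133+ cells. FOXA2, its close relative, read 7.2 in E-CD133+ and 340.4 in E+CD133+ cells, at least 5.65-fold lower. FOXP2, a forkhead repressor active in lung epithelium, read 257.6 in E-CD133+ and 2127 in E+CD133+ cells and was 8.26-fold lower. Of its 3 other probe sets, 1 gave 0.21 beside -2.98, a bound, and -4.05. In the CD133-low pair the log2 ratio was -0.77 for FOXA2, a bound, and -0.64 for FOXP2. The secretory genes AGR2, AGR3 and MUC1 were 2.67-fold, 3.03-fold and 2.61-fold lower, and AGR2 read 9154 in E-CD133+ and 24412 in E+CD133+ cells. These 3 genes were lower in the CD133-low pair too, at log2 ratios of -0.97, -1.80 and -2.28. The lung factor NKX2-1 read 116.6 in E-CD133+ and 215.3 in E+CD133+ cells, a log2 ratio of -0.88 that did not reach the limit. Outside the list, THRB, a thyroid hormone receptor, was 8.61-fold lower (101.1 in E-CD133+ and 870.6 in E+CD133+ cells), with other probe sets at 0.45 and -2.22, both bounds. The homeobox gene PBX3 was 4.60-fold lower, with 1069 in E-CD133+ and 4916 in E+CD133+ cells, and the homeobox gene SHOX2 4.31-fold lower. ID3, an inhibitor of helix-loop-helix factors, read 180.8 in E-CD133+ and 771.3 in E+CD133+ cells, 4.27-fold lower, far under its 19862 in E-CD133- and 17878 in E+CD133- cells.

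Matrix genes were higher in E-CD133+ cells. Of 28 measured collagens and structural matrix proteins, 11 were at least 2-fold higher and 0 lower, 8 of the 11 not shared, and the median log2 ratio was 0.32, against -0.19 in the CD133-low pair. COL12A1, a collagen that links fibrils, read 1019 in E-CD133+ and 108.6 in E+CD133+ cells, 9.38-fold higher. The fibril collagen COL1A2 read 434.7 in E-CD133+ and 65.1 in E+CD133+ cells, 6.68-fold higher. That probe set was below the floor in E-CD133- and in E+CD133- cells, and the other 2 probe sets of COL1A2 gave log2 ratios of at least 3.37 and 0.80 in the CD133-high pair. The basement membrane collagen COL4A2 read 361.6 in E-CD133+ and 61.0 in E+CD133+ cells (5.93-fold higher). Its other probe set read 65.3 in E-CD133+ cells and 7.7, under the floor, in E+CD133+ cells, a log2 ratio of at least 0.28. COL4A1, which pairs with it and was named after its values were seen, read 758.4 in E-CD133+ and 198.1 in E+CD133+ cells, 3.83-fold higher, and 693.6 in E-CD133- and 936.8 in E+CD133- cells. POSTN, the matrix protein periostin, and COL11A1, a minor fibril collagen, were 7.74-fold and 6.70-fold higher here and at least 2-fold higher in the CD133-low pair too. The fibril collagen COL3A1 was below 2-fold, at 19767 in E-CD133+ and 29221 in E+CD133+ cells (log2 -0.56). COL1A1 had a log2 ratio of -0.11. ABI3BP and MFAP5, matrix proteins outside the list, were 9.04-fold and 8.75-fold higher, with 1053 and 717.2 in E-CD133+ cells and 116.5 and 82.0 in E+CD133+ cells.

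COL1A2, LUM and DCN are also markers of stromal cells. They were 3 of 10 measured among 24 markers of other cell types that were counted as higher. The summed signal of that list was 25776 in E-CD133+ and 34138 in E+CD133+ cells, and 19124 in E-CD133- and 25842 in E+CD133- cells. COL3A1 alone made up most of the sum in the pair, with 19767 in E-CD133+ and 29221 in E+CD133+ cells. The sum therefore says little about the other markers. The leukocyte gene PTPRC read 1102 in E-CD133+ and 1246 in E+CD133+ cells, and 505.0 in E-CD133- and 345.6 in E+CD133- cells. Its other 2 probe sets were above the floor too, with log2 ratios of -0.19 and -0.38. Below the floor on both arrays of the pair were the T cell genes CD3D, CD3E and CD2, the myeloid genes CD14 and LYZ, the endothelial genes VWF and CDH5 and the mesenchymal receptor PDGFRA. In RNA from a sorted pool, fewer cells that express a gene and less RNA per cell cannot be told apart.

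Several proteases and their inhibitors were higher as well. Of 21 measured members, 6 were at least 2-fold higher in E-CD133+ cells, 0 were lower, and the median was 0.40 against -0.17 in the CD133-low pair, where 0 were higher and 4 lower. Besides TFPI2, the collagenase MMP1 read 367.3 in E-CD133+ and 60.1 in E+CD133+ cells, 6.11-fold higher. TIMP1, an inhibitor of metalloproteases, read 271.6 in E-CD133+ and 34.5 in E+CD133+ cells, at least 5.06-fold higher. PLAT, the tissue plasminogen activator, read 620.0 in E-CD133+ and 120.3 in E+CD133+ cells, 5.15-fold higher. SERPINE2, which inhibits plasminogen activators and thrombin, and ADAMTS1 were 2.86-fold and 2.01-fold higher. MMP3 lay below the floor on both arrays.

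S100 proteins and galectins, small calcium-binding and sugar-binding proteins, were higher or near equal throughout. All 16 measured members had a log2 ratio above 0 with the scaling as deposited, 4 were at least 2-fold higher, and 8 of the 16 ratios are bounds. For these 8 only 1 array lay above the floor, and the higher floor in E-CD133+ cells (60.3 against 53.7) favours a ratio above 0. The count of 16 above 0 therefore rests partly on the floor. The median was 0.42, and 0.26 after equal medians, against -0.47 in the CD133-low pair. S100A6 read 5796 in E-CD133+ and 940.6 in E+CD133+ cells, 6.16-fold higher, and was below the floor in E-CD133- and in E+CD133- cells. S100A10, the partner of annexin A2, read 1149 in E-CD133+ and 261.4 in E+CD133+ cells, 4.40-fold higher, and was higher in the CD133-low pair as well. S100A11 was at least 3.47-fold higher and S100A16 2.17-fold higher.

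Immediate early genes, which respond within minutes to growth factors and stress, were higher in E-CD133+ cells. Of 21 measured genes of the list 7 were at least 2-fold higher, 0 lower and 14 neither, the median log2 ratio was 0.50, and 17 had a ratio above 0. All 7 were not shared, and in the CD133-low pair 0 genes of the list were higher, 4 were lower and the median was -0.42. EGR1, a zinc finger factor, read 6515 in E-CD133+ and 1823.5 in E+CD133+ cells, 3.57-fold higher, and its other probe sets gave 1.54 and 1.80. In the CD133-low pair EGR1 read 1902 in E-CD133- and 5504 in E+CD133- cells, so the 2 high values lay in opposite E-cadherin states. EGR3 read 1280 in E-CD133+ and 326.8 in E+CD133+ cells, 3.92-fold higher, and FOSL2 620.2 and 225.1, 2.75-fold higher. The AP-1 subunits JUN and FOS read 599.1 and 2329 in E-CD133+ cells against 247.3 and 1037.5 in E+CD133+ cells, 2.42-fold and 2.24-fold higher. The stress factor ATF3 and the orphan receptor NR4A1 were 2.36-fold and 2.41-fold higher.

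The promoter of EGR1 is shown because all 3 of its probe sets gave a ratio of over 2-fold and the CArG box, the site of serum response factor, is the element known from its promoter. It lies at chr5:138465229-138465478 on the plus strand (RefSeq, GRCh38.p14), the 250 bases before the start, with CArG boxes in capitals, the first beginning 105 and the second 83 bases before the start.
EGR1: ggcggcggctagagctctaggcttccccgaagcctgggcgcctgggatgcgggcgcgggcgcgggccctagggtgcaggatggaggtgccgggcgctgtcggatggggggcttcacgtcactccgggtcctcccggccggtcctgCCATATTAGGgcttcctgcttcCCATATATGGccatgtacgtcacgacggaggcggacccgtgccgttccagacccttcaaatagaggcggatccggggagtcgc
Among the 16 measured immediate early genes with a promoter at hand, 1 held a CArG box in this window (6.25%), against 0.978% of the promoters of all measured genes and 1.69% of those of the 413 higher genes. The table held 1.14% over all its promoters.

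Some genes of receptor kinase signalling were also higher in E-CD133+ cells. EGFR, the epidermal growth factor receptor, read 2118 in E-CD133+ and 851.4 in E+CD133+ cells, 2.49-fold higher, and its 4 other probe sets had log2 ratios of 0.36 to 1.68. It read 535.0 in E-CD133- and 709.1 in E+CD133- cells. ERRFI1, an inhibitor of EGFR that the receptor induces, read 9205 in E-CD133+ and 2490 in E+CD133+ cells, 3.70-fold higher. The ligand NRG1 was at least 4.33-fold higher, with 232.5 in E-CD133+ and 32.6 in E+CD133+ cells. The ligand HBEGF was 2.38-fold lower, with 366.4 in E-CD133+ and 872.3 in E+CD133+ cells, and 2.91-fold lower in the CD133-low pair. In all, 4 of 12 measured genes of the EGFR family were higher and 2 lower, with a median of 0.16 that turned to -0.01 after equal medians.

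Of 21 measured genes of ERK pathway feedback, 5 were at least 2-fold higher and 0 lower (median 0.36, against -0.08 in the CD133-low pair). PHLDA1, a pleckstrin domain protein induced by ERK, read 1469 in E-CD133+ and 213.4 in E+CD133+ cells, 6.88-fold higher, with other probe sets at 1.42, 3.32 and at least 2.13. The phosphatase DUSP4, the stress gene IER3, the AP-1 subunit FOSL1 and the lipid kinase SPHK1 were 2.24-fold, 2.22-fold, 2.31-fold and 2.07-fold higher. Of 36 measured genes of other receptor kinases and ligands, 7 were higher and 0 lower. AXL, a receptor kinase tied to drug resistance in lung cancer, read 1518 in E-CD133+ and 270.8 in E+CD133+ cells, 5.6-fold higher. It was at least 2.64-fold higher in the CD133-low pair too. The KIT ligand KITLG read 1003 in E-CD133+ and 418.5 in E+CD133+ cells, 2.4-fold higher. The growth factor carrier IGFBP2 was 2.87-fold higher here and 2.38-fold higher in the CD133-low pair. Eph receptors and ephrins went both ways, with 3 higher and 3 lower of 16. EPHA5 was 5.03-fold higher (858.6 in E-CD133+ and 170.6 in E+CD133+ cells) and EFNB2 5.44-fold higher, while EPHA1 was at least 7.54-fold lower (42 in E-CD133+ and 454.5 in E+CD133+ cells). In the CD133-low pair EFNB2 was 4.93-fold higher and EPHA1 at least 6.27-fold lower.

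**Figure D4:**
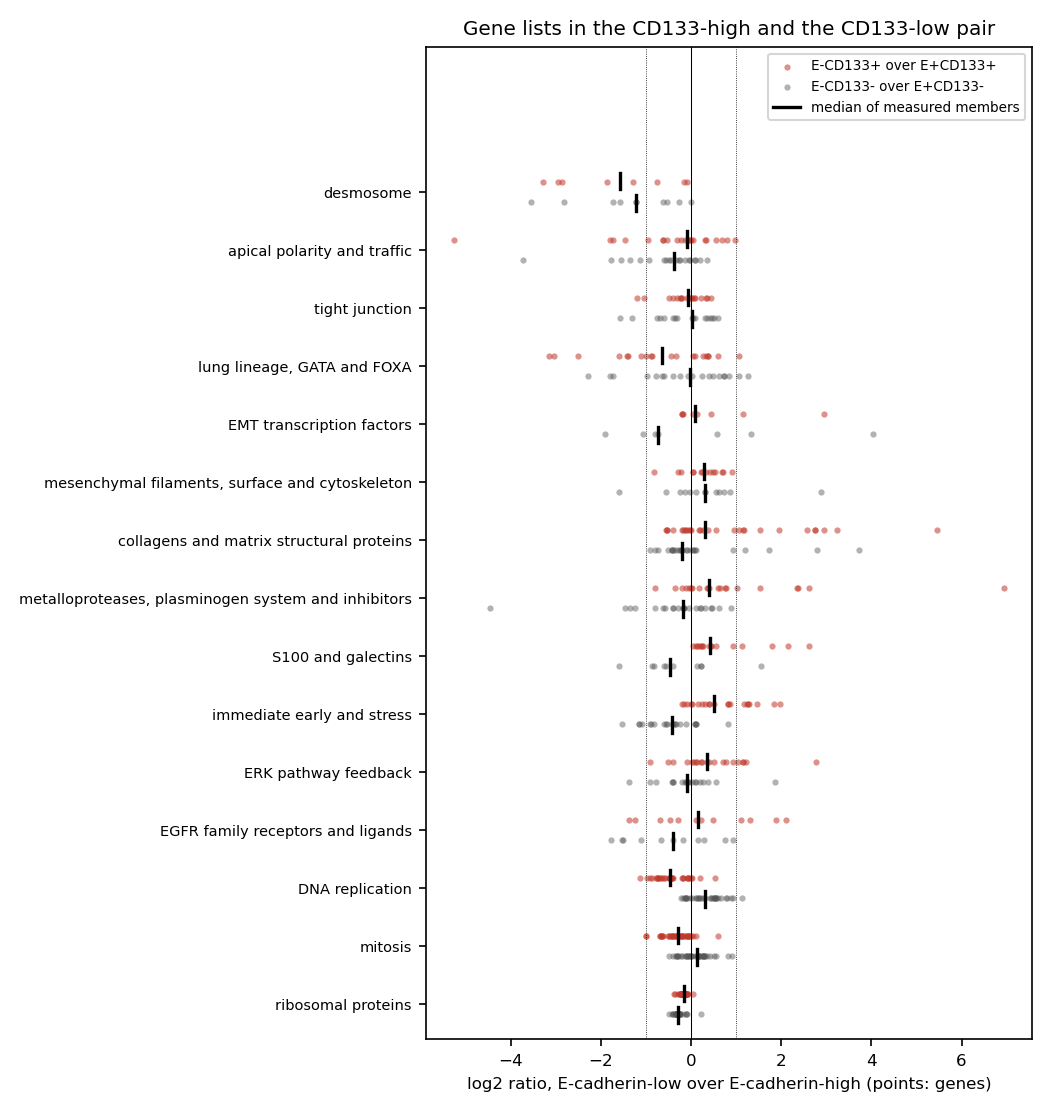
Log2 ratios of the measured members of 15 gene lists, E-CD133+ over E+CD133+ (red, upper line of each list) and E-CD133- over E+CD133- (grey, lower line), with black bars at the medians and dotted lines at 2-fold. The desmosome lies left of 0 in both pairs, and the medians of immediate early genes (0.50 and -0.42), S100 proteins and galectins (0.42 and -0.47) and DNA replication genes (-0.46 and 0.32) lie on opposite sides of 0.

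Most DNA replication and mitosis genes had ratios below 0. Of 33 measured DNA replication genes 30 had a log2 ratio below 0, the median was -0.46, and 1 was at least 2-fold lower. That gene was GINS1, a subunit of the replicative helicase, with 3815 in E-CD133+ and 8343 in E+CD133+ cells, 2.19-fold lower. The helicase subunit MCM2 read 3564 in E-CD133+ and 5906 in E+CD133+ cells, and MCM3 1088 and 2048, log2 ratios of -0.73 and -0.91. MCM4 was near equal, at 2591 in E-CD133+ and 2683.5 in E+CD133+ cells (log2 -0.05). Its other probe sets gave -0.65, 0.09 and -0.34. PCNA, the sliding clamp, was named after its values were seen, at 6949 in E-CD133+ and 13665 in E+CD133+ cells (log2 -0.98). In the CD133-low pair the list had a median of 0.32, and PCNA read 12749 in E-CD133- and 6900 in E+CD133- cells. Of 41 measured mitosis genes 38 lay below 0, with a median of -0.30, and CDK1 was 2.01-fold lower. The 3 other probe sets of CDK1 disagreed in direction, with log2 ratios of -0.54, -0.79 and 0.07, and none reached 2-fold. The median of all measured genes was 0.01, and among the 3620 genes whose brighter array reached 2000 it was -0.03, with 53.6% below 0. The scaling alternatives kept both medians below 0, at -0.47 and -0.63 for replication and -0.31 and -0.47 for mitosis. The D and E cyclins and CDK inhibitors had a median of -0.02, with 10 above and 10 below 0, and 4 of 20 measured were higher and 0 lower. Besides CCND2, the CDK inhibitors CDKN1A and CDKN2B were 2.31-fold and 2.26-fold higher, with 1710 and 148.3 in E-CD133+ cells and 738.9 and 65.7 in E+CD133+ cells. CIP2A, an inhibitor of protein phosphatase 2A, was 3.31-fold lower, with 285.2 in E-CD133+ and 945.4 in E+CD133+ cells.

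Of 28 measured genes of drug transport and redox defence, 4 were higher and 1 lower. HMOX1, haem oxygenase, read 7586 in E-CD133+ and 1639 in E+CD133+ cells, 4.63-fold higher, and 1527 in E-CD133- and 1519 in E+CD133- cells. GCLM, a subunit of the enzyme that starts glutathione synthesis, read 5241 in E-CD133+ and 2348.5 in E+CD133+ cells, 2.23-fold higher. SLC7A11, the cystine transporter, went the other way at 3633 in E-CD133+ and 9634.5 in E+CD133+ cells, 2.65-fold lower, and was 2.89-fold lower in the CD133-low pair. The drug efflux pump ABCG2, also used as a stem-like cell marker, read 957.4 in E-CD133+ and 301.4 in E+CD133+ cells, 3.18-fold higher. ABCB1, the P-glycoprotein pump, lay below the floor on all 4 arrays.

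Smaller groups had a few counted members each. In the BMP list the receptor-activated factor SMAD1 and the BMP antagonist NOG were 3.15-fold and 3.81-fold higher, while the ligand BMP7 and the antagonist CHRDL1 were 3.06-fold and 3.93-fold lower. CHRDL1 was 2.72-fold lower in the CD133-low pair too. Of 29 measured Wnt genes, 3 were higher and 2 lower, with the inhibitor DKK1 6.10-fold higher (2289 in E-CD133+ and 375.0 in E+CD133+ cells) and the R-spondin receptor LGR4 4.93-fold lower (774.1 in E-CD133+ and 3813 in E+CD133+ cells). In the CD133-low pair DKK1 was 3.61-fold higher and LGR4 5.4-fold lower. Neuronal genes included 6 higher of 18, among them NEFL, a neurofilament, SNAP25, a vesicle fusion protein, and the RNA-binding ELAVL2, at 2.90-fold, 2.27-fold and 2.39-fold. Protocadherin PCDH18 was 8.93-fold higher, with 595.4 in E-CD133+ and 66.6 in E+CD133+ cells, and 5 of 17 other cadherins were higher. The cytokine receptor IL13RA2 and the complement protease C1S were 4.99-fold and 5.34-fold higher, and the initiator caspase CASP8 was 2.71-fold lower. None of 23 measured Notch genes, 25 heat shock genes, 29 genes of oxidative phosphorylation, 36 ribosomal protein genes or 23 housekeeping genes reached 2-fold in either direction, which are counts without a test. Over all measured genes 4.05% were higher and 2.69% lower. Among genes whose brighter array reached 2000 the shares were 1.91% and 1.96%. A count of 0 in a single list of this size therefore does not set that list apart. The ribosomal median was -0.17, with 35 of 36 below 0, and -0.01 after quantile normalization.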

How the data were processed

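Total RNA of 4 sorted PC14 subpopulations was hybridised to Affymetrix arrays with a biotin label, 1 array each. The deposited values are linear intensities, 1 for each probe set, made with MAS5 per the submitters' processing notes; its version is not given in the sources used here, and no detection calls or batch labels were used. The trimmed mean intensity was 500.1 on each array.

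Of 54675 probe sets, 62 were controls, 41097 had 1 gene symbol, 1801 several and 11777 none here, controls included. The gene IDs of 41043 matched RefSeq (GRCh38.p14). Each of 19775 genes took the single-symbol probe set that was brightest by mean log2 intensity over the 4 arrays. Intensities below the 50th percentile of an array were set to it, log2 ratios were taken within each E-cadherin pair, and a gene counted at a log2 ratio of at least 1. Not shared means a log2 ratio under 0.5 (1.41-fold) in that direction in the CD133-low pair. No test was possible, the number of arrays limits the precision, and a gene list is described by its counts and its median.

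The comparison and the 47 gene lists were chosen with earlier results of these data known. Named are CDH1 and PROM1, the 20 genes per direction with the largest ratio at a brighter intensity of at least 500, the 15 per direction among those not shared, 10 with opposite directions, and in each list up to 6 counted members and the first 3; other genes are sort or cell type markers or are marked as chosen after their values were seen. The counting was tested on simulated data. Alternatives covered scaling, floor, fold, probe set choice and the limit for not shared. The scripts ran in Python 3.11.15 with pandas 2.3.3, numpy 2.4.6, matplotlib 3.10.9 and scipy 1.17.1.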

Additional observations from a re-analysis of the deposited data

Results flagged for a closer look

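In 33 genes the E-cadherin ratio was at least 2-fold in opposite directions in CD133-high and CD133-low cells. Of these, 19 belonged to the 536 genes higher in E-CD133+ than in E+CD133+ cells and were lower in E-CD133- than in E+CD133- cells. The other 14 belonged to the 356 lower genes and ran the reverse way. Of all genes measured in the CD133-low pair, 3.07% were at least 2-fold lower and 2.82% at least 2-fold higher. The 33 are therefore not read as a tendency of the counted genes to run in opposite directions. The difference between the pairs was not tested, and 12 of the 33 genes had a brighter array of at least 500 in the CD133-high pair.

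Higher in E-CD133+ than in E+CD133+ cells, by log2 ratio, were TFPI2 (6.95), GNG11 (at least 5.08), OLR1 (4.47), the phosphodiesterase PDE3A (2.42), the transcript IKBKB-DT (2.01), EGR1 (1.84), FIBCD1 (1.65), EEF2KMT (1.46), ATF3 (1.24) and the cell cycle factor E2F1 (1.06). In E-CD133- over E+CD133- cells the same ratios were -4.45 for TFPI2, -1.34 for GNG11, -2.24 for PDE3A, -1.43 for IKBKB-DT, -2.45 for EEF2KMT and -1.30 for E2F1, all of them bounds because E-CD133- cells lay at the floor, and -1.02 for OLR1, -1.53 for EGR1, -1.43 for FIBCD1 and -1.09 for ATF3.

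Lower in E-CD133+ than in E+CD133+ cells were SELENOP (-3.23), the glycogen phosphorylase PYGB (-2.10, a bound), the ligand BMP7 (-1.61), the kinase MAP2K6 (-1.60) and FBXO43 (-1.29). In the CD133-low pair the ratio was 1.08 for SELENOP, at least 1.77 for PYGB, 1.02 for BMP7, 1.80 for MAP2K6 and 2.42 for FBXO43.

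PDE3A read 1300 in E-CD133+ and 242.6 in E+CD133+ cells, and 50.5 in E-CD133- and 270.1 in E+CD133- cells. MAP2K6 read 82.9 in E-CD133+ and 251.4 in E+CD133+ cells, and 269.3 in E-CD133- and 77.6 in E+CD133- cells.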

How the results depend on the processing

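No paired analysis was possible because each subpopulation has 1 array. Quantile normalization, leaving out probe sets marked as shared and both other limits for not shared kept every count within 1.5 times. In the order higher, lower, higher and not shared, lower and not shared, the counts of 536, 356, 397 and 219 became 352, 550, 245 and 374 with equal array medians, 2688, 1906, 1720 and 1168 with no floor, 1842, 1113, 1285 and 729 with a floor at the 25th percentile, and 276, 221, 211 and 131 at the 65th. They became 344, 206, 263 and 126 with the mean over probe sets, 1498, 1139, 1191 and 835 at 1.5-fold, and 170, 90, 106 and 43 at 3-fold. Of the alternatives added after the data were seen, a brighter signal of at least 500 gave 203, 176, 145 and 99, and a second probe set 2-fold the same way gave 102, 72, 64 and 38. The 33 opposite genes became 1008, 414, 11, 17, 286 and 4 with no floor, the 25th and 65th percentile floors, the mean over probe sets, 1.5-fold and 3-fold. The desmosome median was -0.90 with the mean over probe sets and -2.18 without shared probe sets, that of epithelial transcription and splicing regulators -0.39 with no floor (0.46 as reported), that of collagens 1.01 at the 65th percentile and that of S100 proteins and galectins 1.03 at the 25th. ITGB4 reversed to 0.04 with the mean over probe sets, NRG4 to 0.06 at the 65th percentile and PDGFB to -0.01 without shared probe sets. Of 167 named genes counted, 156 stayed at least 2-fold the same way after quantile normalization, 143 after equal medians and 120 with the mean over probe sets. The medians of 10 of 47 lists changed sign with equal medians and of 2 after quantile normalization. The causes were not tested. Of the 536 higher genes 333, and of the 356 lower genes 180, had a brighter signal under 500, and the ratio of 142 higher and 66 lower genes is a bound.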
